A study of Mus musculus with 2 samples.

Results

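The 9 genes described here, Pf4, Ppbp, Gp1ba, Gp1bb, Gp5, Gp6, Gp9, Treml1 and Tubb1, encode proteins characteristic of megakaryocytes and platelets. They were taken by symbol: a row of the gene or transcript tables belonged to the group when its gene ID, without version, carried one of these symbols in the GENCODE mouse annotation. All 9 symbols were found, as 9 of 43346 Ensembl genes and as 11 of 129984 rows of each transcript table. The data are 2 total RNA-seq libraries of liver from healthy B6NCrl mouse embryos at embryonic day 16.5, which form 1 group of 2 biological replicates. Each replicate is a pool of livers from male and female embryos, with 41 embryos in replicate 2 and a number that the labels do not give in replicate 1. Both replicates carry the same donor identifier, so an SD below measures only the spread between these 2 pools, part of which may be technical. Libraries were made from 10 ng of RNA longer than 200 nt, extracted with the mirVana kit, by the SMARTer ultra-low input kit with added spike-in RNA. The summed expected counts, the estimated reads of all rows, were 44477766 for replicate 1 and 48820712 for replicate 2. With 1 condition there is no contrast between conditions and no p-value: levels were compared between genes and between the 2 replicates.

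Megakaryocytes are the large polyploid cells that shed platelets. In the fetal liver, the main blood-forming organ of the mouse before birth, they develop beside erythroid and myeloid cells from shared progenitors. Platelets store chemokines and adhesive proteins in alpha granules, bind von Willebrand factor through the GPIb-IX-V receptor and collagen through glycoprotein VI, and keep their disc shape by a marginal coil of microtubules. In whole tissue, fewer cells of a type and less RNA per cell cannot be told apart, so every level below is a level of the liver and not of a megakaryocyte.

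The 250 bases before the annotated start are shown for the 2 genes with the highest and the 2 with the lowest level, so that both ends of the order can be compared. They are RefSeq sequences of GRCm38.p6, written along the gene's own strand and ending 1 base before the start. They lie at chr5:90772185-90772434 on the + strand for Pf4, chr5:90768268-90768517 on the + strand for Ppbp, chr11:70638872-70639121 on the + strand for Gp1ba and chr7:4397745-4397994 on the - strand for Gp6. Capitals mark GATAA or its reverse complement TTATC, a core read by GATA factors. They also mark GGAAG or its reverse complement CTTCC, a core read by ETS factors. Other forms of these cores were not searched.
Pf4: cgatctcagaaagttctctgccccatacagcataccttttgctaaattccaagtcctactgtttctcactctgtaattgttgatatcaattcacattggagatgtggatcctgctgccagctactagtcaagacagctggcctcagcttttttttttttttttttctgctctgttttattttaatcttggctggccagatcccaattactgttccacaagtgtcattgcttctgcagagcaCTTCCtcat
Ppbp: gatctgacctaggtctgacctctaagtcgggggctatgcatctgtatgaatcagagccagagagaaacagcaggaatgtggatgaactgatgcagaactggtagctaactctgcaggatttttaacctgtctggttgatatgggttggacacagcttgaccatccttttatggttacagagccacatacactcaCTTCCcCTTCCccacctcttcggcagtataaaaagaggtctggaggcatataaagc
Gp1ba: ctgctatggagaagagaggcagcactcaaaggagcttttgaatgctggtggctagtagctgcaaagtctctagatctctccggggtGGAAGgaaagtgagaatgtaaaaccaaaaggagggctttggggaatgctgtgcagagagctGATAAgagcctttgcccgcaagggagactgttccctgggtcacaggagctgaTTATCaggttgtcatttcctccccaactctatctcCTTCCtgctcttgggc
Gp6: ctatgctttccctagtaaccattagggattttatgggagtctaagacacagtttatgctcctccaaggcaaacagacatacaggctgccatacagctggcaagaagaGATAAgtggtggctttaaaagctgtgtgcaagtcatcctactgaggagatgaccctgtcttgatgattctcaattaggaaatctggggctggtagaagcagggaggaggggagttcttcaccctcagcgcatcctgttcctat
Windows of all 9 genes were found in the RefSeq table, and 8 of the 9 could be matched to a transcript of the gene in the later annotation release. The Tubb1 window ends at 174450594, short of that release's start at 174450695. For Gp1bb the window lies before the start of 1 model, and its other model starts at 18621640. Other starts of these genes were not searched. The GATA letters stood in 4 of the 9 windows (Gp1ba, Gp5, Gp6 and Gp9), against 22.6% of the 32841 windows of all genes in the table. The ETS letters stood in 8 of the 9, all but Gp6, against 64.1% of all windows. Of the 4 windows printed, those of Pf4 and Ppbp had the ETS letters alone, that of Gp1ba had both and that of Gp6 had the GATA letters alone. Gp1bb, Treml1 and Tubb1, at lower levels than the 2 chemokines, also had the ETS letters alone, so this was not particular to the chemokines. The GATA letters stood in Gp5, Gp6 and Gp1ba, the lowest genes by mean TPM, and in Gp9, next below the chemokines. Whether the letters bear on the level was not tested. The RUNX letters TGTGGT or ACCACA stood in 1 window (Gp9), against 14.0% of all windows, and the NF-E2 letters TGAGTCA or TGACTCA stood in 0 of 9, against 4.46%. TATAAA or TTTATA stood in 1 window, that of Ppbp, against 12.4%. Both strands were searched; none of the 5 motifs is contained in another, and their matches may overlap. A match is a match of letters, and a window without one says nothing about a factor's binding.

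All 9 genes were detected. A gene is called detected here when it had at least 1 TPM in each of the 2 libraries. TPM is an abundance per transcript length, scaled to a fixed sum, so that genes can be compared with each other. The same level was reached by 27.9% of all Ensembl genes and by 52.2% of the 21474 protein-coding genes. The 9 genes were chosen with earlier results of these data known, so these shares serve as a scale only. At least 10 TPM in each library was found for 6 of the 9 genes, against 26.4% of protein-coding genes, and at least 100 TPM for 2 of the 9, Pf4 and Ppbp, against 3.98%. The levels spanned from 2.69 TPM for Gp1ba to 215 TPM for Pf4, with a median over the 9 genes of 13.3 TPM in replicate 1 and 16.8 TPM in replicate 2. The median over all protein-coding genes was 1.41 TPM in replicate 1 and 1.57 TPM in replicate 2.

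The order of mean levels was Pf4, Ppbp, Gp9, Tubb1, Gp1bb, Treml1, Gp5, Gp6 and Gp1ba. In each neighbouring pair but Gp6 and Gp1ba, both libraries of the higher gene lay above both libraries of the lower. The order depends on the scale: by mean expected count it was Ppbp, Pf4, Tubb1, Gp5, Gp9, Gp1bb, Treml1, Gp1ba and Gp6. It also depends on the annotated transcripts. By its shorter transcript alone, a choice made after seeing the data, Gp1bb had 9.09 TPM on average, below Treml1 at 11.9 TPM. Together the 9 genes held 424.0 TPM in replicate 1 and 421.5 TPM in replicate 2, or 422.8 ± 1.77 TPM (SD, n = 2). Pf4 and Ppbp made up 81.1% of that sum in replicate 1 and 78.9% in replicate 2. The other 7 genes summed to 80.0 TPM in replicate 1 and 88.7 TPM in replicate 2. The level per gene was therefore very unequal within the group, and the sum follows the chemokines. Ppbp, with an SD of 10.7 TPM, was lower in replicate 2, while Pf4 and the sum of the other 7 genes were higher. These differences partly offset each other in the sum, so its SD does not measure the spread of single genes.

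**Figure D1:**
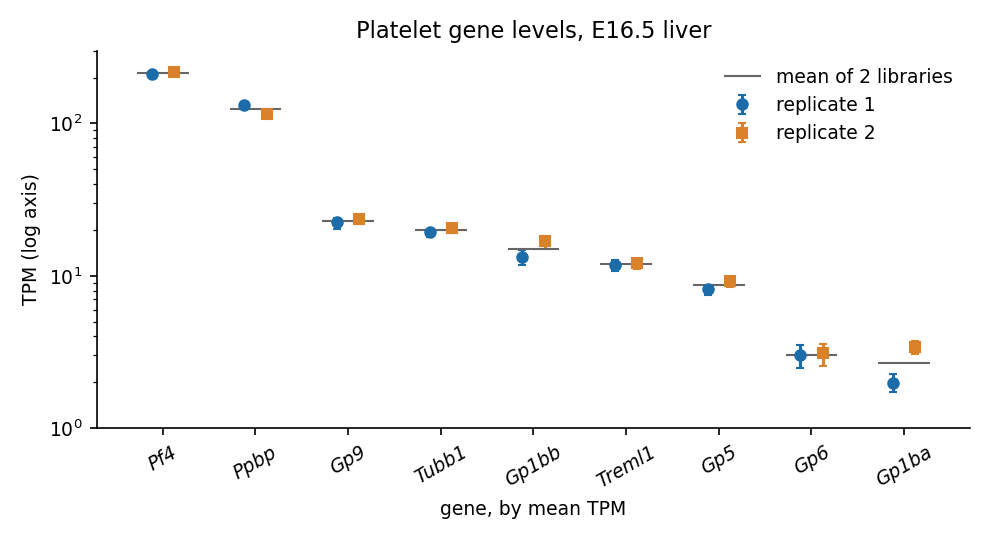
Level of each of the 9 genes in TPM on a log axis, in order of mean level, with replicate 1 as circles, replicate 2 as squares, the deposited interval of each library as bars and the mean of the 2 libraries as a line. Pf4 at 215 TPM and Ppbp at 124 TPM stand above the other 7 genes, and Gp1ba shows the widest gap between libraries, 1.99 TPM in replicate 1 and 3.4 TPM in replicate 2.

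The 2 chemokines of the alpha granule came first. Pf4 (ENSMUSG00000029373, chr5:90772435-90773383, + strand) encodes platelet factor 4, also called CXCL4, which binds heparin. It had 212.62 TPM from 4359 expected counts in replicate 1 and 216.6 TPM from 4798 in replicate 2, or 215 ± 2.81 TPM (SD, n = 2). It ranked 426 among all Ensembl genes by mean TPM. Ppbp (ENSMUSG00000029372, chr5:90768518-90770063, + strand) encodes pro-platelet basic protein, the precursor of the neutrophil-attracting chemokine CXCL7. It had 131.34 TPM in replicate 1 and 116.16 TPM in replicate 2, or 124 ± 10.7 TPM (SD, n = 2), and ranked 792. Ppbp was thus lower than Pf4 in both libraries, at 0.618 of its TPM in replicate 1 and 0.536 in replicate 2. By reads the order turns: Ppbp, whose annotated transcript has 1080 nt, had 5424 and 5183 expected counts in replicates 1 and 2, more than Pf4, whose transcript has 586 nt. The mean ratio of Ppbp to Pf4 was 0.577 ± 0.0576 in TPM and 1.16 ± 0.116 in expected counts (SD, n = 2 each).

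Pf4 and Ppbp are direct neighbours in a cluster of CXC chemokine genes. They stand on the same strand, with 2372 nt from the end of Ppbp to the start of Pf4 and no annotated gene between them. The genes on either side were close to 0. Cxcl5, which encodes a neutrophil attractant and starts at -13.08 kb from the Pf4 start, had 0.46 TPM in replicate 1 and 0.48 TPM in replicate 2. Cxcl3, at 13.67 kb on the other side, had 0 and 2 expected counts in replicates 1 and 2. Cxcl15 had no expected count in either library, which allows up to 3 counts in each. The high level was therefore held by this adjacent pair among the 7 CXC genes of the cluster, of which Cxcl1, at 1.03 TPM in replicate 1 and 1.16 TPM in replicate 2, came next. Over 12 other CXC chemokine genes of the genome, 4 were detected and the median was 0.0825 ± 0.0318 TPM (SD, n = 2). The 3 highest were Cxcl12, which retains blood progenitors in their niche, at 51.4 ± 1.79 TPM, Cxcl10 at 3.25 ± 0.0990 TPM and Cxcl16 at 2.43 ± 0.283 TPM. Both Pf4 and Ppbp lay above each of them in both libraries.

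**Figure D2:**
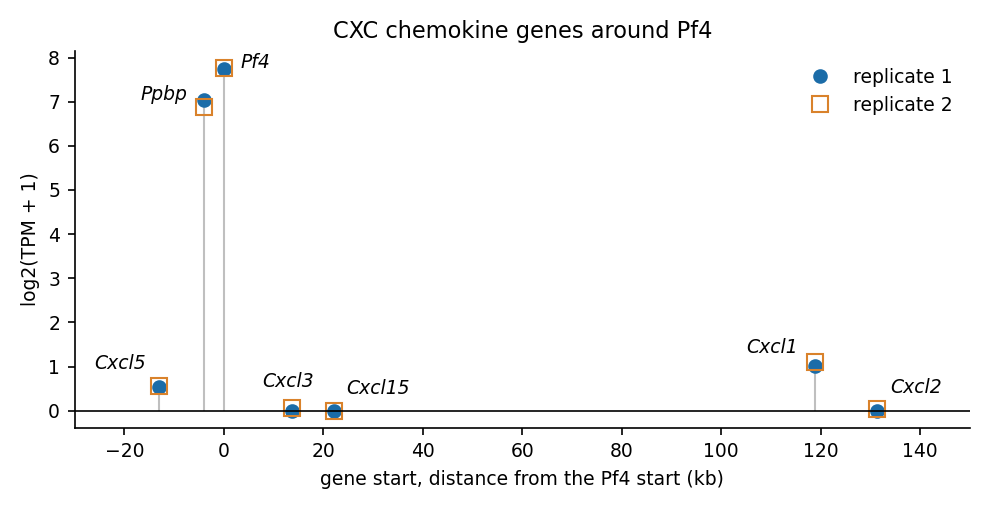
Level of the 7 CXC chemokine genes around Pf4 as log2(TPM + 1) against the distance of each gene's start from the Pf4 start in kb, with replicate 1 as filled circles and replicate 2 as open squares. The neighbours Ppbp and Pf4 stand at 124 and 215 TPM on average, and the next highest gene, Cxcl1, at 1.09 TPM.

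The GPIb-IX-V receptor is built from the products of Gp1ba, Gp1bb, Gp9 and Gp5. It tethers platelets to von Willebrand factor under flow. The 4 genes summed to 45.9 TPM in replicate 1 and 53.1 TPM in replicate 2. They were not at equal levels: Gp9 was highest and Gp1ba, the subunit that binds the ligand, lowest. Gp9 (ENSMUSG00000030054, chr6:87778072-87779768, + strand), a small subunit needed for surface expression of the complex, had 22.39 TPM from 671 expected counts in replicate 1 and 23.65 TPM from 766 in replicate 2, or 23.0 ± 0.891 TPM (SD, n = 2). Gp1bb (ENSMUSG00000050761, chr16:18620317-18622403, - strand), which is bound to GPIb alpha by disulfide bonds, had 13.35 TPM in replicate 1 and 16.84 TPM in replicate 2, or 15.1 ± 2.47 TPM (SD, n = 2). Gp5 (ENSMUSG00000047953, chr16:30307685-30310779, - strand), a thrombin-cleaved subunit, had 8.18 TPM from 722 expected counts in replicate 1 and 9.19 TPM from 877 in replicate 2. Its mean was 8.68 ± 0.714 TPM (SD, n = 2), and its deposited intervals overlapped between the libraries. Gp1ba (ENSMUSG00000050675, chr11:70639122-70642036, + strand) had 1.99 TPM from 213 expected counts in replicate 1 and 3.4 TPM from 399 in replicate 2, or 2.69 ± 0.997 TPM (SD, n = 2). The SD of Gp1ba was 37.0% of its mean, against 3.87% for Gp9, 8.22% for Gp5 and 16.3% for Gp1bb.

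Relative to Gp1ba, Gp9 was 11.3-fold higher in replicate 1 and 6.96-fold higher in replicate 2 in TPM. Gp1bb was 6.71-fold higher than Gp1ba in replicate 1 and 4.95-fold higher in replicate 2. Gp5 was 4.11-fold higher in replicate 1 and 2.70-fold higher in replicate 2. All 3 ratios were therefore smaller in replicate 2, where Gp1ba was higher. In expected counts, which favour long transcripts, the mean ratios were 2.54 ± 0.870 for Gp9, 2.33 ± 0.511 for Gp1bb and 2.79 ± 0.843 for Gp5 (SD, n = 2 each). Gp1ba was the lowest of the 4 on both scales, and the order of the other 3 depended on the scale: Gp5 had the most reads of the 4 genes and Gp9 the highest TPM.

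Gp1ba and Gp1bb were the 2 genes of the 9 with more than 1 transcript row. The 2 models of Gp1ba have the same coding sequence. The longer model, ENSMUST00000055184 of 2710 nt, extends 216 nt further at the 3′ end than ENSMUST00000108551 of 2480 nt, and the ends of their first exons differ by 8 nt. The longer model had 1.38 TPM in replicate 1 and 2.93 TPM in replicate 2, which is 69.3% of the gene in replicate 1 and 86.2% in replicate 2. The shorter had 0.61 TPM in replicate 1 and 0.47 TPM in replicate 2, and its deposited intervals of 0.298 to 1.11 TPM and 0.174 to 0.832 TPM overlapped. Those of the longer model, 0.885 to 1.69 TPM in replicate 1 and 2.46 to 3.30 TPM in replicate 2, did not overlap. As the models share nearly all of their sequence, this split is the quantification's division of shared reads, and which model differs between the libraries is uncertain.

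For Gp1bb, the shorter model, ENSMUST00000051160 of 645 nt, led in TPM with 8.07 TPM in replicate 1 and 10.1 TPM in replicate 2. That was 60.4% of the gene in replicate 1 and 60.0% in replicate 2. In expected counts the longer model, ENSMUST00000167388 of 1847 nt, led, with 67.7% in replicate 1 and 68.1% in replicate 2. The split between the models was alike in the 2 libraries on each scale, and which one leads depends on the scale. Annotated lengths bear on this: the later annotation release gives the first model 2085 nt and the second 1086 nt, so the TPM of Gp1bb rests on models that were revised. Gp1bb also shares part of its span and its strand with Sept5, which encodes a septin. Expected counts of Gp1bb were not whole, 573.80 in replicate 1 and 786.69 in replicate 2, and those of Sept5 were 194.20 in replicate 1 and 267.31 in replicate 2. Together the 2 genes held 768 reads, a whole number, in replicate 1, of which 74.7% went to Gp1bb, and 1054 in replicate 2, of which 74.6% did. Part of the Gp1bb level therefore rests on how shared reads were divided. The other 8 genes had whole expected counts, within 0.01. A further gene annotated across Gp1bb in the later release was not analysed here.

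**Figure D3:**
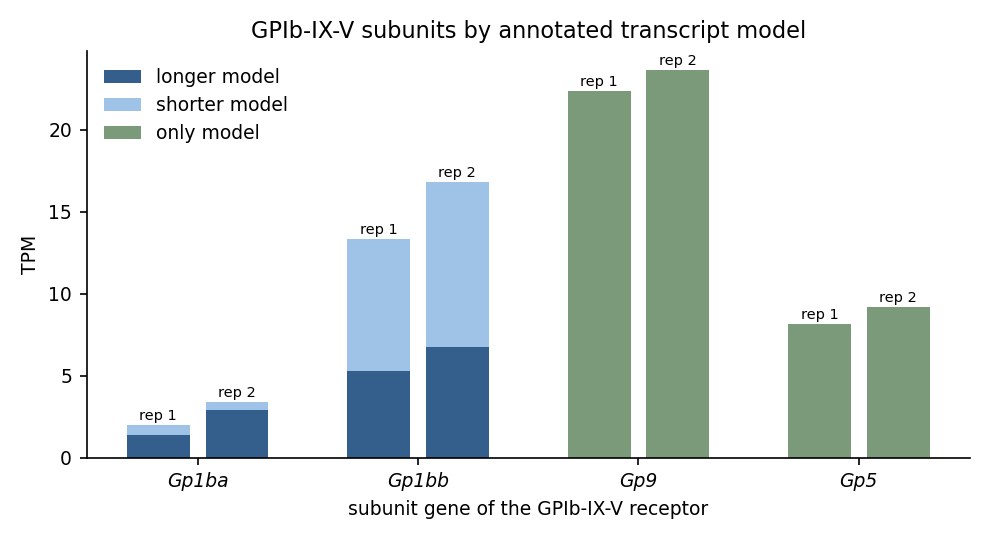
TPM of the 4 GPIb-IX-V subunit genes in replicate 1 and replicate 2, each bar divided by annotated transcript model (for Gp1ba and Gp1bb the longer below and the shorter above; Gp9 and Gp5 have 1 model). Gp1ba reaches 1.99 TPM in replicate 1 and 3.4 TPM in replicate 2, and the division of its bars between models rests on shared reads.

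Gp6 (ENSMUSG00000078810, chr7:4363965-4397744, - strand) encodes glycoprotein VI, the signalling receptor for collagen. It had 3.0 TPM from 133 expected counts in replicate 1 and 3.09 TPM from 148 in replicate 2, or 3.04 ± 0.0636 TPM (SD, n = 2). Gp6 had the fewest reads of the 9 genes, and its 2 libraries lay inside the range of Gp1ba. Its transcript in the tables has 1152 nt, while the later release lists 2 models of 965 to 5900 nt, so its TPM also depends on the model used. Fcer1g, the Fc receptor gamma chain through which glycoprotein VI signals and which myeloid cells also carry, had 97.75 TPM in replicate 1 and 111.71 TPM in replicate 2. Of 10 genes listed for signalling from this receptor, all 10 were detected, and their median was 7.60 ± 0.378 TPM (SD, n = 2). The 3 highest were Fcer1g at 105 ± 9.87 TPM, the Src-family kinase gene Lyn at 18.4 ± 0.820 TPM and the Tec-family kinase gene Btk at 12.9 ± 0.163 TPM. Vav3, a guanine nucleotide exchange factor, was lowest at 2.46 ± 0.0566 TPM. The receptor gene thus stood below the median of the genes that carry its signal.

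Treml1 (ENSMUSG00000023993, chr17:48359916-48367176, + strand) encodes TLT-1, a receptor held in alpha granules and brought to the surface of activated platelets. It had 11.76 TPM from 569 expected counts in replicate 1 and 12.05 TPM from 630 in replicate 2, or 11.9 ± 0.205 TPM (SD, n = 2). It lies in the TREM locus of innate immune receptors. All 6 other listed genes of that locus were detected; their median was 3.15 ± 0.145 TPM (SD, n = 2), and each lay below Treml1 in both libraries. The highest of them were Trem3 at 7.88 ± 0.0354 TPM, Treml4 at 4.18 ± 0.255 TPM and Treml6 at 3.79 ± 0.0919 TPM, and the lowest was Trem1 at 1.42 ± 0.0141 TPM. The nearest gene before Treml1, Trem2, had 2.37 TPM in replicate 1 and 2.65 TPM in replicate 2.

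Tubb1 (ENSMUSG00000016255, chr2:174450695-174457882, + strand) encodes the beta tubulin of platelets and megakaryocytes. It had 19.37 TPM from 1066 expected counts in replicate 1 and 20.52 TPM from 1220 in replicate 2, or 19.9 ± 0.813 TPM (SD, n = 2). Among the beta tubulin genes it was no leading one. Tubb4b, found in most cells, had 532 ± 24.6 TPM, Tubb5 had 295 ± 12.5 TPM and Tubb2a had 59.7 ± 0.870 TPM (SD, n = 2 each), all above Tubb1 in both libraries. Tubb4a was the lowest, at 0.425 ± 0.148 TPM. Of the 7 other beta tubulin genes, 4 were detected, and those 4 stood above Tubb1.

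Between the replicates, 0 of the 9 genes differed by 2-fold or more. The measure was log2 of (TPM + 1) in replicate 1 divided by the same in replicate 2, set to 0 at the median gene, for genes averaging at least 10 expected counts. The same rule called 0.597% of the 16258 genes tested, so 0 of 9 is close to the background share. That share includes genes of low TPM, whose ratios the added 1 TPM pulls towards 0. In 3 of the 9 genes, Gp1ba, Gp1bb and Ppbp, the deposited TPM intervals of the 2 libraries did not overlap, against 20.6% of the genes tested. Gp1ba and Gp1bb were lower in replicate 1, Gp1bb not so after scaling to the spike-ins, and Ppbp was higher. Of the genes tested, 12.2% had intervals apart with replicate 1 lower and 8.40% with replicate 1 higher.

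Gp1ba differed most. Its centred log2 ratio was -0.54, and 2.36% of the genes tested had one of at least that size. The 1 TPM added pulls the ratios of low genes towards 0, that of Gp1ba among them. The share is therefore not one over genes of like level. Its expected counts per library total stood in a ratio of 0.582, with a 95% exact counting interval of 0.490 to 0.689. The interval does not reach 1, but the labels name no molecular identifiers and such intervals cover counting error only. Gp1bb had a centred log2 ratio of -0.3 and a count ratio of 0.795 (95% interval 0.713 to 0.886). Ppbp had a centred log2 ratio of 0.19 and a count ratio of 1.14 (95% interval 1.10 to 1.19). For Gp5 the count interval of 0.812 to 0.991 also stayed under 1, although its deposited TPM intervals overlapped. With centring, 8 of the 9 genes had a lower value in replicate 1, against 51.8% of the genes tested, but DESeq2 size factors gave 6 of 9 and scaling to the spike-ins gave 1 of 9. Of the 8, Pf4, Gp6 and Treml1 lay at -0.01, the median of the genes tested, so their sign carries little. Under spike-in scaling Gp1bb had a log2 ratio of 0.04. Spike-ins held 3.96% of all TPM in replicate 1 and 5.08% in replicate 2, and scaling to them moved the median gene by 0.34 on the log2 scale. This scaling moved the log2 ratio of every gene by the same amount, so it could not change any ratio relative to the median gene. Outside Gp1ba, Gp1bb and Ppbp, centred ratios ran between -0.13 for Gp5 and -0.01 for Pf4, Gp6 and Treml1. These 6 genes lay nearer the median gene, Gp5 least so, with its count interval under 1.

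**Figure D4:**
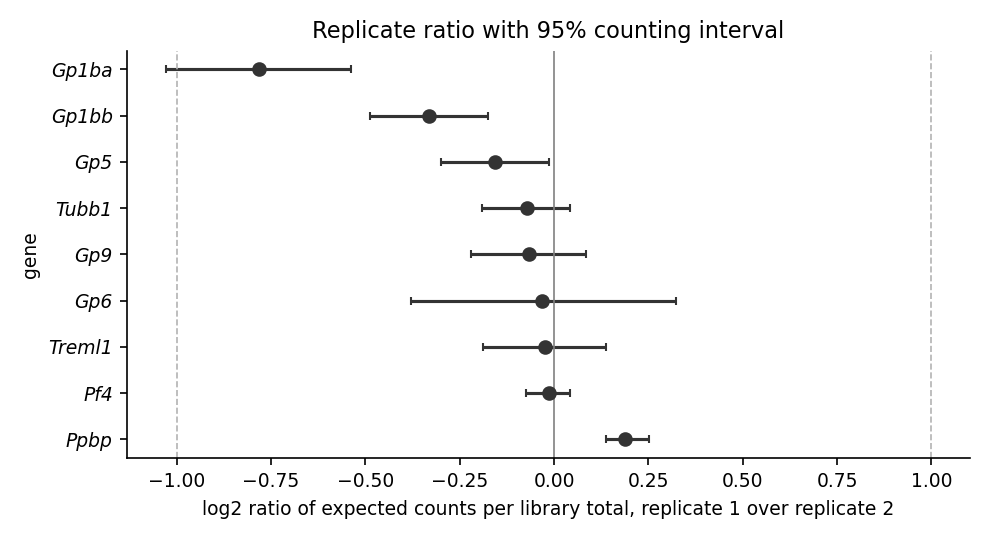
Log2 ratio of expected counts per library total, replicate 1 over replicate 2, for each of the 9 genes, with 95% exact counting intervals as bars and dashed lines at 2-fold. Gp1ba lies farthest to the left at a count ratio of 0.582, Ppbp is the one gene to the right of 0 with its interval apart from it, and the interval of Gp1ba reaches the 2-fold line.

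Markers of other cells were read beside these values. The tissue label was checked against its markers: all 5 hepatocyte genes and all 5 erythroid genes listed were far above 10 TPM in both libraries, with Afp, alpha-fetoprotein, at 13648 ± 27.0 TPM and Klf1, an erythroid factor, at 351 ± 6.89 TPM. Of the 4 skeletal muscle genes listed, 3 were past 2-fold and all 4 were lower in replicate 1, with a sum of 109.9 TPM in replicate 1 and 259.9 TPM in replicate 2. The 5 mast cell and basophil genes listed summed to 10.52 TPM in replicate 1 and 7.0 TPM in replicate 2, and 2 of the 5 were detected. All 6 endothelial genes listed were detected and summed to 69.86 TPM in replicate 1 and 73.25 TPM in replicate 2. All 5 macrophage genes were detected, with a sum of 302.5 TPM in replicate 1 and 326.2 TPM in replicate 2, and so were all 5 neutrophil genes, with 5717 TPM in replicate 1 and 5985 TPM in replicate 2. The part of these cells and tissues in the replicate differences of Gp1ba, Gp1bb and Ppbp was not tested.

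In gene structure the 9 were compact. Of the 9, 4 genes, Gp1ba, Gp1bb, Gp5 and Gp9, had the whole of their longest annotated coding sequence in 1 exon, against 16.3% of 21866 protein-coding genes. These 4 are the subunits of GPIb-IX-V. The genomic span had a median of 2915 nt over the 9 genes and of 17364 nt over all protein-coding genes, and 8 of the 9 lay under the median of all. Gp6 is the exception, with 33780 nt and 8 coding exons. Pf4 and Ppbp each have 3 coding exons, with coding sequences of 315 nt and 339 nt.

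Of 78 further genes in 8 lists of platelet and megakaryocyte function, 74 (94.9%) were detected, against 52.2% of protein-coding genes. The 4 others were Itga2, Selp, Pdgfb and Srf, of which Selp is named after its values were seen. Itga2 encodes the alpha subunit of a collagen-binding integrin and had 0.34 TPM in replicate 1 and 0.38 TPM in replicate 2. Selp, the gene of P-selectin of alpha granules and endothelium, had 0.67 TPM in replicate 1 and 1.1 TPM in replicate 2. None of the 78 was past 2-fold between the libraries, beside 0.597% of the genes tested. Intervals did not overlap in 18 of them, or 23.1%, against 20.6% of the genes tested. Many genes of these lists are also active in other cells of the liver, so the counts describe the tissue. The lists were also chosen with earlier results of these data known, so the share detected was not independent of that choice.

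The integrin list, which holds the fibrinogen receptor and its activators, had 7 of 8 genes detected and a median of 31.3 ± 0.725 TPM (SD, n = 2). Itga2b, the alpha subunit of the fibrinogen receptor, had 24.98 TPM in replicate 1 and 29.04 TPM in replicate 2, and its partner Itgb3 had 12.2 TPM in replicate 1 and 13.92 TPM in replicate 2. The 3 highest genes were the integrin activators Fermt3 at 85.1 ± 0.191 TPM and Rasgrp2 at 71.0 ± 1.39 TPM, and Itgb1 at 60.6 ± 3.61 TPM. Itga2b thus lay above Gp9 in both libraries, and the libraries of Itgb3 overlapped those of Gp1bb. All 11 genes listed as other platelet receptors were detected, and their median was 5.29 ± 0.658 TPM. The tetraspanin gene Cd9 led that list at 146 ± 1.02 TPM, followed by the thrombin receptor gene F2r at 33.0 ± 0.0424 TPM. Next came Clec1b, the podoplanin receptor, at 23.4 ± 0.544 TPM. F2rl3, another thrombin receptor, was lowest at 2.17 ± 0.163 TPM. Which cells of the liver held the F2r RNA, and whether platelets did, was not tested. Thpo, which encodes the hormone thrombopoietin and is made by hepatocytes, had 4.31 TPM in replicate 1 and 5.13 TPM in replicate 2.

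Granule genes were at lower levels than the 2 chemokines. Of 12 alpha granule genes, 10 were detected, and the median was 5.46 ± 0.180 TPM (SD, n = 2). Srgn, the proteoglycan to which granule proteins bind, had 56.0 ± 2.69 TPM, Thbs1, thrombospondin, had 26.9 ± 1.07 TPM and F13a1, a subunit of the clot-stabilising factor, had 15.9 ± 0.0990 TPM. Pdgfb, a growth factor gene, was lowest at 0.375 ± 0.0495 TPM. Vwf, the ligand of GPIb alpha, which endothelial cells also make, had 9.19 TPM in replicate 1 and 10.48 TPM in replicate 2. All 9 dense granule genes were detected, and their median was 4.85 ± 0.191 TPM. They ran from 1.48 ± 0.0778 TPM for Slc35d3 to 10.3 ± 0.530 TPM for Hps4, both needed to form the granule in mice, with Hps5 at 6.50 TPM and Hps3 at 5.46 ± 0.467 TPM next below Hps4. All 3 eicosanoid enzyme genes were detected: Ptgs1, the cyclooxygenase of platelets, had 19.0 ± 0.891 TPM, Alox12 had 12.2 ± 1.07 TPM and Tbxas1, thromboxane synthase, had 10.3 ± 1.17 TPM. Those 3 levels lay in the range of Tubb1, Treml1 and Gp5.

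The 10 genes of the cytoskeleton that shapes proplatelets were all detected, and their median was 56.6 ± 5.06 TPM (SD, n = 2). Its highest genes, Pfn1 at 817 ± 36.3 TPM, Cfl1 at 699 ± 22.7 TPM and Tuba4a at 301 ± 10.0 TPM, stood above all 9 platelet genes, and the first 2, regulators of actin, are active in nearly every cell type. Diaph1, a formin, was lowest at 2.88 ± 0.156 TPM. Of 15 transcription factor genes of the lineage, 14 were detected, and the median was 15.3 ± 0.311 TPM. Nfe2 at 184 ± 9.89 TPM, Lmo2 at 111 ± 1.88 TPM and Gata1 at 91.2 ± 3.10 TPM led that list, and all 3 are also known in erythroid cells. Srf, a factor of cytoskeletal genes, was lowest at 0.755 ± 0.0495 TPM. Nfe2 lay between Ppbp and Pf4.

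**Figure D5:**
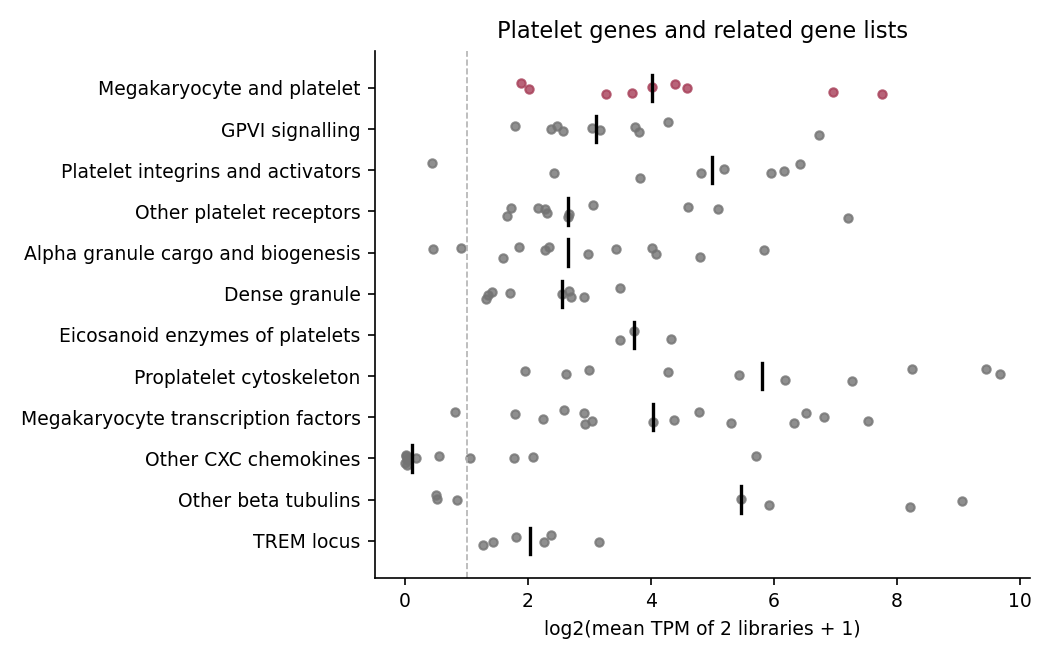
Mean level of each gene as log2(mean TPM of 2 libraries + 1), with the 9 megakaryocyte and platelet genes in the top row and 11 related lists below, a black line at each list's median and a dashed line at 1 TPM. The median of the 9 genes is 15.1 TPM, that of the cytoskeleton list 56.6 TPM and that of the other CXC chemokines 0.0825 TPM.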

How the data were processed

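Total RNA of 2 pools of E16.5 mouse liver was measured in 1 library each. The authors deposited a gene and a transcript table per library, quantified on mm10 with GENCODE M4 according to a text file that accompanies them. For the aligner and program versions the sources used here give nothing. Per the file headers, the authors gave expected counts, which can be fractions of reads. The deposited TPM values sum over every row, the spike-in rows too, and come with a posterior mean TPM. The deposited FPKM values served only as an alternative for ratios. The deposited percent columns give how much of a gene each transcript holds; the shares printed were computed anew from TPM. The deposited interval bounds of TPM, read as a score because their level is not stated, were compared only between libraries.

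Symbols and coordinates came from GENCODE release M21 (GRCm38, the build called mm10), counted from 1. Of 43346 Ensembl genes, 42462 matched. No strand-specific step is named, so overlapping genes were treated as sharing reads. Levels are the mean and SD of 2 libraries. Ratios are log2 of TPM + 1 in replicate 1 divided by TPM + 1 in replicate 2, less the median over genes averaging at least 100 expected counts; genes averaging at least 10 were tested. Counting intervals are exact (Clopper-Pearson) at 95% on rounded counts over the total on Ensembl genes, 43364573 in replicate 1 and 47263435 in replicate 2. The ratio computation was tested on simulated data. The text names all 9 members and draws the other genes from a rule: of each list the 3 highest and the lowest by mean TPM; genes that overlap or flank a member; and Fcer1g, Itga2b, Itgb3, Vwf and Thpo. Not every gene so selected is reported here. Of the marker lists of other cell types, only a few genes are named. Genes were not ranked by likeness of pattern, which 2 libraries do not allow. Members and lists were chosen with earlier results of these data known. Promoter windows of 250 bases are RefSeq's. Alternatives used edgeR 4.0.16 and DESeq2 1.42.0 (R 4.3.3) on rounded expected counts for scaling alone; the rest used matplotlib 3.10.9, pandas 2.3.3, scipy 1.17.1 and numpy 2.4.6 in python 3.11.15.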

Additional observations from a re-analysis of the deposited data

How the results depend on the processing

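No paired analysis was possible because the series holds 1 group, whose 2 replicates have no second group to pair with. The count of 9 genes detected was the same with the posterior mean TPM, with TPM rescaled over annotated nuclear genes and in each replicate alone, and it was 7 at 5 TPM and 6 at 10 TPM. The summed TPM of the 9 genes, 422.8, was 417.5 with the posterior mean TPM and 453.7 after rescaling, and ran from 421.5 to 424.0 over single replicates. In expected counts the ratio of Ppbp to Pf4 was 1.16 in place of 0.577, that of Gp1bb to Gp1ba was 2.33 in place of 5.83 and that of Gp9 to Gp1ba was 2.54 in place of 9.10, since counts are not per length. With the shorter Gp1bb model alone, an alternative chosen after seeing the data, the ratio of Gp1bb to Gp1ba was 3.51. The leading transcript was the same in 8 of 9 genes by expected counts, Gp1bb being the exception. No gene of the 9 was past 2-fold under any pseudocount, scaling or count filter tried. Of those scalings, also read for direction after seeing the data, TMM left 7 and DESeq2 size factors 6 of 9 genes lower in replicate 1, and spike-in scaling left 1. The log2 ratio of Gp1bb was then 0.04 in place of -0.3, that of Ppbp 0.53 in place of 0.19 and that of Gp1ba -0.2 in place of -0.54; for Gp1ba it was -0.76 with TMM and -0.75 with DESeq2 size factors. Depth limits Gp6 and Gp1ba most, which had 133 and 213 expected counts in replicate 1.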
